A study of Mus musculus with 12 samples.

Results

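Vitamin A reaches tissues as retinol bound to a plasma carrier, and cells oxidize it in a pair of steps: alcohol and retinol dehydrogenases form retinal reversibly, and retinal dehydrogenases form retinoic acid irreversibly. Retinoic acid binds nuclear receptors that act on the transcription of target genes, and CYP26 enzymes break it down. In skeletal muscle, retinoic acid is known for its part in limb patterning, in the differentiation of muscle precursors and in lipid oxidation.

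The mRNA levels of 9 mouse genes of this pathway were described in the gastrocnemius muscle: the alcohol dehydrogenases Adh1 and Adh7, the retinol dehydrogenase Rdh10, the retinal reductase Dhrs3, the retinal dehydrogenases Aldh1a1, Aldh1a2 and Aldh1a3, the plasma carrier Rbp4 and the membrane receptor Stra6. They are 9 of the 19938 genes that have a transcript cluster (the set of probes that the array design assigns to one gene locus) with a single gene symbol, and each had 1 transcript cluster of the 28944 on the array. The genes were chosen by their symbols from a comparison of the same 12 arrays whose results were already known, so their differences between groups are given as a description and not as a test. Where one of the 9 is said to be called, this states only on which side of the array-wide threshold its values fell, and it is no evidence of a difference.

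The study gave fecal samples of treadmill-trained or sedentary ICR donor males to germ-free recipients, and asked whether muscle metabolism of the recipients follows the donor. RT are recipients from trained donors (6 mice) and RS are recipients from sedentary donors (6 mice). All 12 recipients were male mice of the germ-free strain Tsl;ICR[GF], were 11 weeks old, ate a high-fat diet and were sampled 1 week after the first gavage, in a fasted state. The recipients of a group were housed together and received the same fecal material, so the donor's training, the fecal material and the cage cannot be told apart, and the spread between the mice of a group may not be that of independent transplants. No muscle of untreated germ-free mice or of the donors was analysed here, so every value below sets RT against RS.

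The values are log2 signals, on which a difference of 1 is a doubling. RT minus RS differences are given with the standard error from limma, a linear model with a variance shared across transcript clusters, and a call needed both p under 0.05 before adjustment and p under 0.1 after Benjamini-Hochberg adjustment over the whole array. Array medians were between 4.40 and 4.63 and the arrays correlated at 0.974 to 0.994. The arrays of RS-4 and RS-6 stood apart: the standard deviation (SD) over all transcript clusters was 1.97 and 1.99 in them and 2.06 to 2.15 in the other 10, and their scores on the first principal component were 43.0 and 43.4 against −30.8 to 21.2 in the others. Values without both arrays are given beside the results of the retinoid and dehydrogenase genes whose call or size they change most, and not for the cell markers. All 12 skeletal muscle fiber markers, among them the actin gene Acta1 and the creatine kinase gene Ckm, lay above the 99.5th percentile of mean signal and none was called, with list means of 12.23 to 12.30 in RT and 12.06 to 12.33 in RS.

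**Figure D1:**
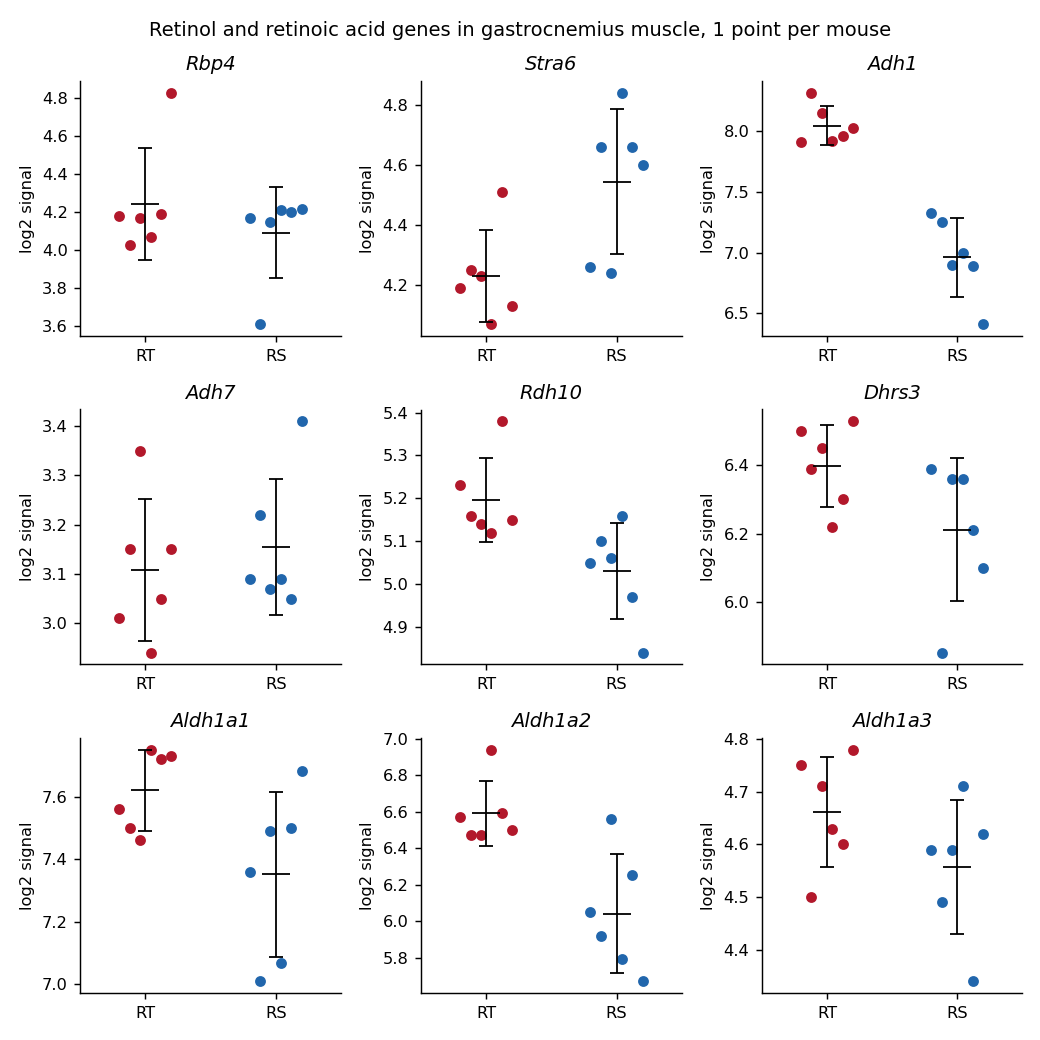
Log2 signal of the 9 retinoid genes in gastrocnemius muscle, 1 point per mouse, with RT left of RS in each pair and the bars giving mean and SD (n = 6 each). The 6 RT values of Adh1, 7.91 to 8.32, all lie above the 6 RS values, 6.41 to 7.33, whereas the groups overlap in the other 8 genes.

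Of the 9 genes, Adh1 and Aldh1a2 were called higher in RT (2 of 9, 22.2%), beside 11.9% of all transcript clusters, and Stra6 was called lower (1 of 9, 11.1%), beside 13.0% of all. Every RT value lay above every RS value in 1 of 9 genes, Adh1, beside 2.69% of all transcript clusters, and every RT value lay below every RS value in 0 of 9 genes, beside 3.1%. The genes were picked in view of this comparison, so nothing is read from these counts. The median difference of the 9 genes was 0.17, beside −0.01 over all transcript clusters, and 7 differences were above 0 and 2 below 0. The median difference varied over 10 bins of equal size by mean signal. It was 0.125 in the bin of Adh1 and Aldh1a1, 0.152 in that of Aldh1a2 and Dhrs3 and 0.035 in that of Rdh10. In the bin of Aldh1a3 it was −0.057, in that of Adh7 −0.113 and in that of Rbp4 and Stra6 −0.125. The SD among mice was lower in RT than in RS in 7 of the 9 genes, the exceptions being Adh7 and Rbp4. The same share over all transcript clusters was not computed, and RS holds RS-4 and RS-6. The count is therefore not read as a trait of these genes.

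Adh1, which encodes the class I alcohol dehydrogenase that oxidizes ethanol and, at high supply, retinol, had the largest difference of the 9 genes. Its lowest, median and highest log2 signals were 7.91, 7.995 and 8.32 in RT, against 6.41, 6.95 and 7.33 in RS. The lowest RT mouse, RT-1, was above the highest RS mouse, RS-1, and RS-6 was the lowest of all 12. Adh1 averaged 8.05 ± 0.16 in RT and 6.96 ± 0.33 in RS (SD, n = 6 each), a difference of 1.09 ± 0.13 (standard error) or 2.12-fold. The size of that difference was at the 99.7th percentile of all transcript clusters, and its mean signal was at the 91.1st percentile. Without RS-4 and RS-6 the difference was 0.96, and over 24 alternatives it lay between 0.91 and 1.16. Of the 2895 transcript clusters in the same bin by mean signal (10 bins of equal size), 22.2% were called higher and 7.91% lower.

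Adh7, which encodes the class IV enzyme known for retinol oxidation in stomach and skin, lies next to Adh1 in the alcohol dehydrogenase cluster of chromosome 3 and did not share its difference. Its lowest, median and highest log2 signals were 2.94, 3.10 and 3.35 in RT, against 3.05, 3.09 and 3.41 in RS. The groups overlapped, and these signals were dim, at the 26.1st percentile of mean signal. Adh7 averaged 3.11 ± 0.14 in RT and 3.16 ± 0.14 in RS (SD, n = 6 each), a difference of −0.05 ± 0.09, which turned above 0 in 5 of 23 alternatives, among them without RS-6 alone (0.0043) and without RS-4 and RS-6 (0.00083).

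The other measured genes of the alcohol dehydrogenase cluster were placed by their order on chromosome 3 in a RefSeq gene table (GRCm38.p6): Adh7, Adh1, Adh6a, Adh6b, the pseudogene Adh6-ps1, Adh4 and Adh5. Adh1 and Adh5 were called higher and the other 5 were not called. Adh5, the class III gene at the other end that encodes glutathione-dependent formaldehyde dehydrogenase, averaged 6.86 in RT and 6.61 in RS, a difference of 0.25 ± 0.10 (standard error, adjusted p = 0.0822 from limma). That call was lost in 16 of 24 alternatives, among them those without RT-1, RT-2, RT-3, RT-4, RT-6, RS-4, RS-5 or RS-6 (0.19 to 0.27), and without RS-4 and RS-6 the difference was 0.13. Between Adh1 and Adh5, Adh6a, Adh6b, Adh6-ps1 and Adh4 differed by −0.09, −0.03, −0.17 and −0.23, with limma adjusted p of 0.549, 0.907, 0.394 and 0.26, and all of them averaged below 3.6 in both groups. The 2 transcript clusters of Adh6b with that symbol alone were both not called. Adh1 shares much of its coding sequence with its paralogs, and how far the array's probes tell them apart was not tested.

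**Figure D2:**
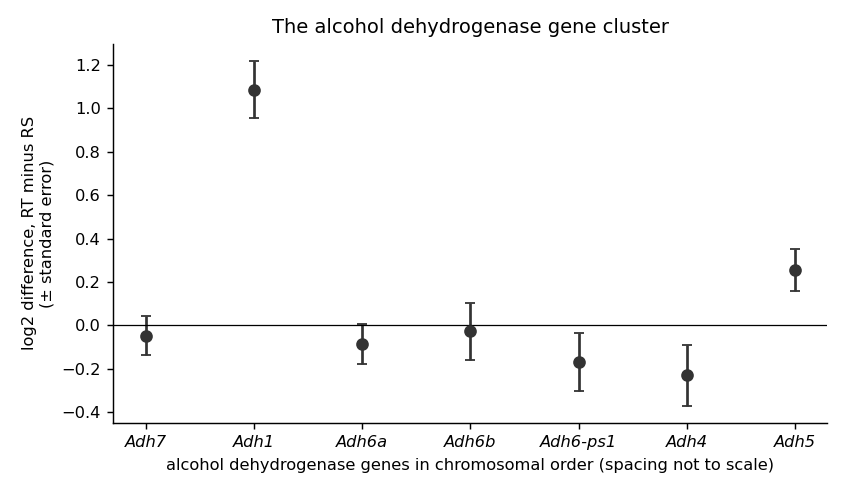
Log2 difference (RT minus RS, bars ± standard error) of the 7 measured alcohol dehydrogenase genes of chromosome 3 in their order along the chromosome, evenly spaced. Adh1 stands at 1.09 while its neighbors Adh7 and Adh6a stand at −0.05 and −0.09, and Adh5 at the far end stands at 0.25.

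The sequences before the start sites of Adh1 and Adh7 are shown because these neighbors had differences of 1.09 and −0.05, and that of Aldh1a2 because it was the other gene called higher. Each is the 250 bases upstream of the RefSeq start (GRCm38.p6, plus strand, 5′ to 3′), at chr3:138277335-138277584 for Adh1, chr3:138217523-138217772 for Adh7 and chr9:71215539-71215788 for Aldh1a2. Capitals mark matches on either strand to AGGTCA or AGTTCA (the half-sites that retinoic acid receptors bind), TATAAA or CCAAT.
Adh1: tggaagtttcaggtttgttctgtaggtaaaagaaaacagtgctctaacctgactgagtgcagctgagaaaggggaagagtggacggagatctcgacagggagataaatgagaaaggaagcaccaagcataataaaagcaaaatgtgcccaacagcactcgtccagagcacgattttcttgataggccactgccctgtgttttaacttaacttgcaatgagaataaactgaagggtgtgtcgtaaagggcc
Adh7: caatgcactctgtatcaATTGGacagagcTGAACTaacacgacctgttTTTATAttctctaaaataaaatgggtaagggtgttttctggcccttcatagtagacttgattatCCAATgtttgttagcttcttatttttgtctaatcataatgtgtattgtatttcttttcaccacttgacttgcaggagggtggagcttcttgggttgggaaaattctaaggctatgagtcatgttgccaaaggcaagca
Aldh1a2: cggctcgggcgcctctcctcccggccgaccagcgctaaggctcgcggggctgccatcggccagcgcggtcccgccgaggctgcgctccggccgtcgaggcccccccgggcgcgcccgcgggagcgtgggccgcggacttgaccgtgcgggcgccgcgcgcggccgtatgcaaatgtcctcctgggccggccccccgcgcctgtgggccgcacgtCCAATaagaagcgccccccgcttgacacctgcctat
The Adh1 window held none of these motifs and 44.8% G or C. The Adh7 window, with 38.0% G or C, held AGTTCA and TATAAA on the minus strand, at positions −221 to −216 and −202 to −197 from the start, and CCAAT once on each strand. The Aldh1a2 window had 77.6% G or C and 1 CCAAT, at −36 to −32. RefSeq windows were matched for 7 of the 9 genes (14 windows, as some genes have several starts), and not for Rdh10 and Aldh1a3. No window of the 7 genes held AGGTCA, which was found in 14.0% of all 32851 windows of this length, and Adh7 was the only one of the 7 with AGTTCA, found in 11.8%. TATAAA, found in 12.4% of all windows, was also present at −28 to −23 from the second start of Rbp4, and CCAAT was found in 33.8% of all windows. Direct repeats of half-sites were searched with GGGTCA and GGTTCA allowed as well. Those spaced by 1, 2 or 5 bases were found in 0.164%, 0.174% and 0.0883% of all windows and in none of these 14. These matches are letters in a window and say nothing of binding, and a motif that lies outside the window would not be seen.

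Rdh10, the retinol dehydrogenase that carries out the first oxidation step in the embryo, had 5.12, 5.16 and 5.38 in RT as lowest, median and highest log2 signals, against 4.84, 5.06 and 5.16 in RS. The groups overlapped narrowly, since RS-4 alone among the RS mice reached the RT range. The difference was 0.17 ± 0.08 (standard error), from 5.20 ± 0.10 in RT and 5.03 ± 0.11 in RS (SD, n = 6 each), and Rdh10 was not called. It was called in 2 of 24 alternatives, with 0.24 when each array was centered on its median.

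Dhrs3 encodes the short-chain reductase that turns retinal back to retinol and is itself induced by retinoic acid. Its log2 signals were 6.22, 6.42 and 6.53 in RT, against 5.85, 6.29 and 6.39 in RS (lowest, median and highest). The groups overlapped, and RS-2 was the lowest mouse. The averages were 6.40 ± 0.12 in RT and 6.21 ± 0.21 in RS (SD, n = 6 each), and the difference of 0.19 ± 0.10 was not called. It was 0.11 without RS-2 and 0.07 after a further quantile normalization or cyclic loess.

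Aldh1a2, which encodes the retinal dehydrogenase RALDH2 that makes most retinoic acid in the embryonic trunk, was the second gene called higher. Its lowest, median and highest log2 signals were 6.47, 6.54 and 6.94 in RT, against 5.67, 5.99 and 6.56 in RS. All RS mice but 1 lay below every RT mouse, and RS-3, at 6.56, lay inside the RT range. Aldh1a2 averaged 6.59 ± 0.18 in RT and 6.04 ± 0.33 in RS (SD, n = 6 each), a difference of 0.55 ± 0.13 (standard error) or 1.46-fold. RS-4 and RS-6 were the second lowest and the lowest RS mice at 5.79 and 5.67, and without them the difference was 0.40 and still called. With the SD of each array as a covariate the difference was 0.39 and no longer called. Of the 2894 transcript clusters in its bin by mean signal, 30.3% were called higher and 5.74% lower.

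Aldh1a1, which encodes the retinal dehydrogenase RALDH1 found in many adult tissues, had 7.46, 7.64 and 7.75 in RT, against 7.01, 7.43 and 7.68 in RS (lowest, median and highest log2 signals). RS-2 and RS-4, at 7.01 and 7.07, were the lowest mice, and RS-3, RS-5 and RS-6 lay inside the RT range. The difference was 0.27 ± 0.11 (standard error), from 7.62 ± 0.13 in RT and 7.35 ± 0.26 in RS (SD, n = 6 each). It was not called, and was called in 5 of 24 alternatives. The differences were 0.13 to 0.34 over all of them, with 0.14 after a further quantile normalization.

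Aldh1a3, which encodes RALDH3, had lowest, median and highest log2 signals of 4.50, 4.67 and 4.78 in RT, against 4.34, 4.59 and 4.71 in RS. The groups overlapped over most of their ranges. The difference of 0.11 ± 0.08 (standard error), from 4.66 ± 0.11 in RT and 4.56 ± 0.13 in RS (SD, n = 6 each), was not called in any of the 24 alternatives. It was 0.16 without RS-4 and RS-6, 0.06 without RS-5 and 0.18 with median centering. Differences of the 3 retinal dehydrogenases were therefore in the order Aldh1a2, Aldh1a1 and Aldh1a3, and whether those differences differ from each other was not tested.

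Rbp4 encodes the plasma carrier of retinol, made mainly in liver and in fat. Its lowest, median and highest log2 signals were 4.03, 4.18 and 4.83 in RT, against 3.61, 4.19 and 4.22 in RS. Apart from RT-6 at 4.83 and RS-2 at 3.61, all mice lay between 4.03 and 4.22, and the medians of the groups were nearly equal. The difference of 0.15 ± 0.14 (standard error) was not called. It was 0.03 without RT-6, 0.06 without RS-2, 0.21 without RS-4 and RS-6 and 0.26 after cyclic loess. Of 5 measured hepatocyte markers, 1 was called higher and 1 lower, with list means of 3.50 to 3.86 in RT against 3.53 to 3.84 in RS. The albumin gene Alb averaged 2.83 in RT and 2.92 in RS and was not called. Cyp2e1, which encodes a cytochrome that oxidizes ethanol, averaged 5.11 in RT and 4.23 in RS, a difference of 0.88 (adjusted p = 0.0154, limma), and the apolipoprotein gene Apoa1 averaged 3.53 in RT and 4.10 in RS, a difference of −0.57 (adjusted p = 0.00412, limma).

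Stra6, the membrane receptor through which cells take up retinol from RBP4, was the 1 gene of the 9 called lower in RT. Its lowest, median and highest log2 signals were 4.07, 4.21 and 4.51 in RT, against 4.24, 4.63 and 4.84 in RS. There were 4 RT mice below every RS mouse, and 4 RS mice lay above every RT mouse, with RT-2 and RT-5 on the one side and RS-1 and RS-3 on the other in the shared range. Stra6 averaged 4.23 ± 0.15 in RT and 4.54 ± 0.24 in RS (SD, n = 6 each), a difference of −0.31 ± 0.11 (standard error) or 0.805-fold. Its signal was at the 48.1st percentile, and in that bin of the array 24.0% of transcript clusters were called lower and 5.60% higher, with a median difference of −0.13. The call was lost in 14 of 24 alternatives. The difference was −0.23 without RS-4 and RS-6, −0.12 with the SD of each array as a covariate and −0.23 after a further quantile normalization, and the call was also lost on leaving out RT-1, RT-4, RT-6, RS-2, RS-4, RS-5 or RS-6 alone, with differences of −0.37 to −0.25 over the 12 mice left out in turn.

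**Figure D3:**
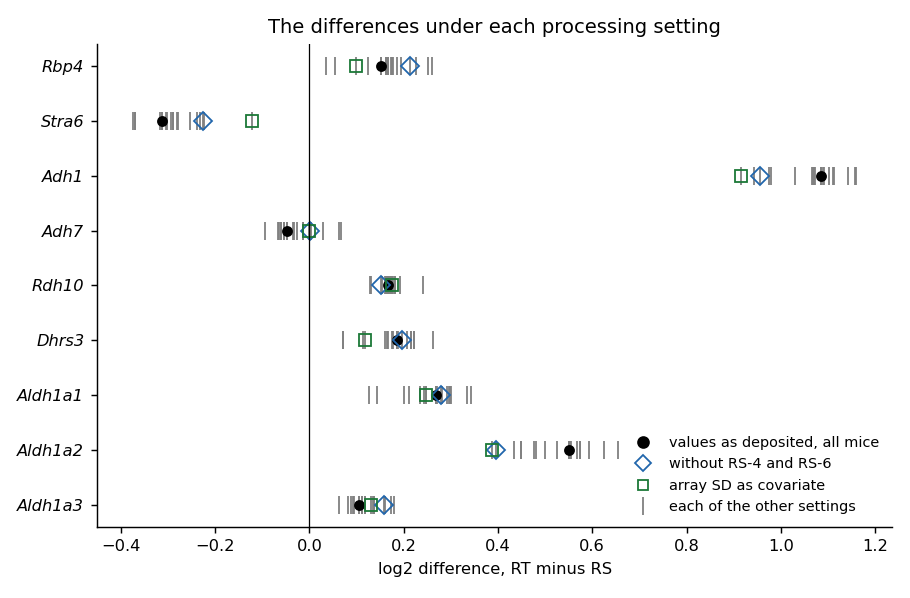
Log2 difference (RT minus RS) of each of the 9 genes with the values as deposited and all mice (black points), without RS-4 and RS-6 (diamonds), with the array SD as a covariate (squares) and under each of the other alternatives (lines). The values of Adh1 run from 0.91 to 1.16 and those of Aldh1a2 from 0.39 to 0.65, those of Stra6 stay below 0 from −0.37 to −0.12, and those of Adh7 fall on both sides of 0.

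The rest of the pathway was described with 7 lists holding 55 genes, of which 52 were measured. Of these, 6 were called higher in RT (11.5%, beside 11.9% of all transcript clusters) and 2 lower (3.85%, beside 13.0%), 44 were not called, and the median difference was 0.02. Median centering moved the balance of calls, to 14 higher and 1 lower in the pathway and to 5883 higher and 2414 lower on the array, beside 3445 and 3764 without it. Removing RS-4 and RS-6 left 3 called higher and 2 lower, and no pathway gene was called with the SD of each array as a covariate.

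**Figure D4:**
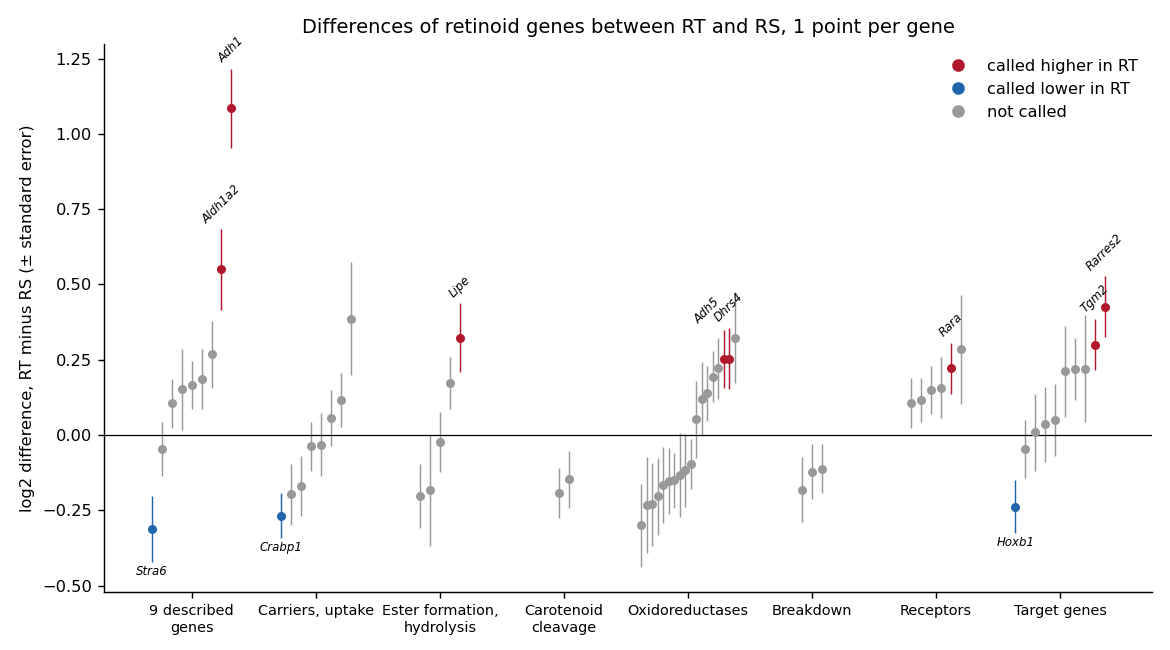
Log2 difference (RT minus RS, bars ± standard error) of the 9 described genes and of the 52 other measured retinoid genes by role, colored by call. Adh1 at 1.09 and Aldh1a2 at 0.55 exceed every other gene shown, the 6 receptors all lie between 0.11 and 0.29, and the 3 breakdown enzymes lie between −0.18 and −0.11. In their bins by mean signal, the median differences were 0.105 to 0.152 for the receptors and −0.125 to 0.035 for the breakdown enzymes.

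Among carriers, 1 of 8 measured genes was called, in the lower direction. Crabp1, which encodes a cytosolic protein that binds retinoic acid, had log2 signals of 4.85 to 5.13 in RT against 5.16 to 5.36 in RS, with no overlap. The difference was −0.27 ± 0.07 (standard error, adjusted p = 0.0253 from limma), and it was −0.28 without RS-4 and RS-6. Its paralog Crabp2 had a difference of −0.17 (adjusted p = 0.243, limma) and the retinol-binding Rbp7, found in fat and capillaries, one of 0.39 (adjusted p = 0.164, limma), neither of them called.

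Of 5 genes of retinyl ester formation and hydrolysis, Lipe was called higher. It encodes hormone-sensitive lipase, which hydrolyzes acylglycerols and retinyl esters in fat cells. Its log2 signals were 5.61 to 6.18 in RT against 5.44 to 6.04 in RS, a difference of 0.32 ± 0.11 (standard error, adjusted p = 0.0647 from limma) that was 0.44 without RS-4 and RS-6. The call was lost in 10 of 24 alternatives, including on leaving out RT-1, RT-2, RT-6, RS-2 or RS-3, with differences of 0.28 to 0.41 when each mouse was left out. Neither of the carotenoid-cleaving genes Bco1 and Bco2 was called, with differences of −0.15 and −0.19 (adjusted p = 0.293 and 0.123, limma).

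Of 18 other oxidoreductases of retinol and retinal, 2 were called higher and 0 lower by limma (5 and 1 at an unadjusted p under 0.05). They were Adh5, given above, and Dhrs4, a peroxisomal reductase that can act on retinal, which had 6.52 to 7.01 in RT against 6.32 to 6.81 in RS and a difference of 0.25 ± 0.10 (standard error, adjusted p = 0.0974 from limma). The Dhrs4 call was lost in 16 of 24 alternatives, among them those without RT-1 to RT-5, RS-2, RS-4, RS-5 or RS-6 (0.20 to 0.25), with 0.18 without RS-4 and RS-6. Rdh14, with 0.32, and Aox1, which encodes an aldehyde oxidase that can also form retinoic acid, with −0.30, were not called (adjusted p = 0.146 and 0.142, limma).

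No breakdown enzyme was called (0 of 3). Cyp26a1, Cyp26b1 and Cyp26c1, the cytochromes that hydroxylate retinoic acid, differed by −0.18, −0.11 and −0.12, with limma adjusted p of 0.249, 0.357 and 0.373, unadjusted p of 0.108, 0.19 and 0.204, and overlapping groups in each. With median centering the differences were −0.11, −0.04 and −0.05, and that of Cyp26c1 was −0.19 without RS-5. With 1 mouse left out, that of Cyp26a1 ran from −0.26 to −0.12. Cyp26a1 was called lower in 1 of 23 alternatives. In the bins by mean signal of Cyp26a1, Cyp26b1 and Cyp26c1, the median differences were −0.063, 0.035 and −0.125.

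All 6 nuclear receptor genes had differences above 0, and 1 of them was called. The median difference of the transcript clusters in their bins by mean signal was 0.152 for Rxra and 0.105 for the other receptors. Rara, which encodes retinoic acid receptor alpha, had 5.64 to 5.90 in RT against 5.34 to 5.72 in RS and a difference of 0.22 ± 0.08 (standard error, adjusted p = 0.0823 from limma). The other receptors of retinoic acid, Rarb and Rarg, differed by 0.15 and 0.11, and their partners of the retinoid X family, Rxra, Rxrb and Rxrg, by 0.16, 0.12 and 0.29. Their limma adjusted p ranged from 0.198 for Rarb to 0.387 for Rarg. Rxrg was split within RS: RS-1 and RS-2, at 6.79 and 6.74, lay above every RT mouse (6.11 to 6.68). RS-3 to RS-6, at 5.81 to 5.84, lay below every RT mouse. The call of Rara was lost in 14 of 24 alternatives, among them those without RT-1, RT-2, RT-4, RT-6, RS-2, RS-4, RS-5 or RS-6 (0.18 to 0.23), and its difference was 0.20 without RS-4 and RS-6. Without these arrays Rarg differed by 0.17 and Rxrg by 0.12, and leaving out RT-6 gave 0.09 for Rxra. After a further quantile normalization Rarb, Rarg, Rxra and Rxrb differed by 0.08, 0.03, 0.02 and 0.01. With 1 mouse left out Rxrg differed by 0.22 to 0.42. Rarb, Rxrb and Rxrg were each called higher in 1 of 24 alternatives.

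Among 10 measured genes known to respond to retinoic acid, 2 were called higher and 1 lower. Rarres2, which encodes the adipokine chemerin, had 5.48 to 6.06 in RT against 5.12 to 5.45 in RS, with no overlap and a difference of 0.43 ± 0.10 (standard error, adjusted p = 0.0123 from limma). Tgm2, which encodes tissue transglutaminase, had 6.90 to 7.18 in RT against 6.54 to 6.91 in RS and a difference of 0.30 ± 0.09 (adjusted p = 0.0289, limma), which was 0.22 without RS-4 and RS-6 and 0.17 after a further quantile normalization, not called in either. Hoxb1, a homeobox gene with a retinoic acid response element, differed by −0.24 ± 0.09 (adjusted p = 0.0768, limma), a call lost in 12 of 24 alternatives, among them those without RT-2, RT-5, RT-6, RS-2, RS-3 or RS-4 (−0.24 to −0.20). The other 7 genes, among them Meis1 with 0.22 and Pck1 with 0.22, were not called.

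Alcohol and aldehyde dehydrogenases that are not known mainly as retinoid enzymes were described for comparison. Of 18 measured, 4 were called higher (22.2%) and 0 lower by limma (also 4 and 0 at an unadjusted p under 0.05), beside 11.9% higher and 13.0% lower of all transcript clusters, with a median difference of 0.05. Aldh2, the mitochondrial enzyme that clears acetaldehyde, had 7.63 to 8.07 in RT against 6.89 to 7.84 in RS and a difference of 0.45 ± 0.14 (standard error, adjusted p = 0.0454 from limma). Aldh3a2, which encodes the fatty aldehyde dehydrogenase, differed by 0.29 ± 0.09 (adjusted p = 0.0374, limma), and Aldh3a1 by 0.28 ± 0.08 with no overlap (adjusted p = 0.0297, limma). Aldh1a7, a mouse paralog of Aldh1a1, differed by 0.57 ± 0.17 (adjusted p = 0.0355, limma), with 3.26 to 4.62 in RT against 3.00 to 3.28 in RS, and RT-1 at 4.62 was the highest. Without RT-1 the difference of Aldh1a7 was 0.38. When RS-4 and RS-6 were removed, Aldh3a1 with 0.25 was the 1 gene of the 4 still called, and with the array SD as a covariate 0 were.

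Markers of several other cell types of muscle also differed between RT and RS. In bulk muscle, fewer cells of a type and less RNA per cell cannot be told apart. For comparison, 11.9% of all transcript clusters were called higher and 13.0% lower. In the bin of Aldh1a2 by mean signal, 30.3% were called higher. Of 11 fibroblast and fibro-adipogenic progenitor markers, 9 were called higher in RT and 0 lower. Their mean list levels were 7.45 to 7.79 in RT against 6.53 to 7.41 in RS. After centering each marker over the 12 mice, the mean fibroblast level was lowest in RS-6 (−0.77) and RS-4 (−0.47). It was between −0.35 and 0.49 in the others. The adipocyte level was lowest in RS-2 (−0.44). Differences of the cell markers without RS-4 and RS-6 are not given, so how far these arrays carry the calls was not tested. Of 8 adipocyte markers, 5 were called higher and 0 lower (5.55 to 6.43 in RT against 5.17 to 5.47 in RS). The defining gene Adipoq, which encodes adiponectin, averaged 4.70 in RT and 3.39 in RS, and Plin1, the lipid droplet perilipin gene, 5.19 in RT and 5.08 in RS. Endothelial markers were called higher in 5 of 8 (6.53 to 6.93 in RT against 6.08 to 6.53 in RS), macrophage markers in 8 of 9 (5.60 to 5.97 in RT against 4.89 to 5.40 in RS) and tenocyte markers in 5 of 6 (6.44 to 6.90 in RT against 5.32 to 6.48 in RS), with 0 lower in each of these 5 lists, also at an unadjusted p under 0.05. Satellite cell and Schwann cell lists had 1 gene called in each direction. Of 6 stratified epithelium markers, 0 were called higher and 2 lower. The part of these cells in the differences of Adh1, Aldh1a2 and the other genes was not tested.

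Since the mice of a group share a donor condition, the variation among them is separate from the difference between the group means. The genes and marker lists were still chosen with earlier results of these arrays known, so the choice was not blind to this variation. Each of the 9 genes was related, within the 6 RT and within the 6 RS mice, to the mean centered level of the adipocyte markers, to that of the fibroblast markers and to the SD of the array, 54 relations in all. With 720 pairings an exact permutation test of Pearson's r can go down to p = 0.00139. A single relation could thus not go below an adjusted p of 0.075 over this family. For Spearman's rho a perfect order without ties gives p = 0.00278, so a single relation could not go below an adjusted p of 0.15. The adjusted values say nothing on whether a relation is absent. In all, 7 Pearson and 5 Spearman relations had an unadjusted p under 0.05, and 0 had an adjusted p under 0.05, the lowest being 0.15 for both. No relation with the SD of the array had an unadjusted p under 0.05.

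The relation with the lowest p was that of Aldh1a2 with the fibroblast level in RS, with r = 0.97 and Spearman's rho = 1.00 (exact permutation test, two-sided, p = 0.00278 for each, adjusted p = 0.15). The 6 RS mice were in the same order in both measures, from RS-6, the lowest, to RS-3, the highest, and r was 0.99 without RS-3 and RS-6. In RT the same relation had r = 0.07 and rho = −0.14 (exact permutation p = 0.861 and 0.778, adjusted p = 0.964 and 1.0), with r = 0.19 without RT-1 and RT-5. RS-6 and RS-4 were the lowest RS mice in Aldh1a2, in fibroblast level and in array SD. With array SD, Aldh1a2 had r = 0.70 and rho = 0.77 in RS (exact permutation p = 0.124 and 0.103, adjusted p = 0.556 and 0.462), with r = 0.12 without RS-4 and RS-6. In RT it had r = −0.36 and rho = −0.61 with array SD (exact permutation p = 0.375 and 0.211, adjusted p = 0.779 and 0.725). Adh1 had r = −0.47 with the fibroblast level in RT and 0.40 in RS (exact permutation p = 0.336 and 0.429, adjusted p = 0.756 and 0.809), with rho = −0.37 and 0.14 (exact permutation p = 0.497 and 0.803, adjusted p = 0.895 and 1.0). Without the 2 mice farthest from the median, r of Adh1 was −0.79 in RT and −0.35 in RS. With the adipocyte level Adh1 had r = −0.31 and rho = −0.31 in RT (exact permutation p = 0.572 and 0.564, adjusted p = 0.861 and 0.923) and r = −0.76 and rho = −0.77 in RS (exact permutation p = 0.0833 and 0.103, adjusted p = 0.409 and 0.462). Without the 2 mice farthest from the median these r were 0.0086 in RT and −0.45 in RS.

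The adipocyte level gave an unadjusted p under 0.05 by both measures for Aldh1a3 in RT and for Aldh1a1 in RS. Aldh1a3 had r = 0.87 and rho = 0.94 with it in RT (exact permutation p = 0.0208 and 0.0167, adjusted p = 0.281 and 0.3), with r = 0.79 without RT-1 and RT-6, and also r = 0.85 and rho = 0.89 with the fibroblast level in RT (exact permutation p = 0.0347 and 0.0333, adjusted p = 0.364 and 0.45), with r = 0.96 without RT-1 and RT-5. Aldh1a1 had r = 0.87 and rho = 0.94 with the adipocyte level in RS (exact permutation p = 0.0194 and 0.0167, adjusted p = 0.281 and 0.3), with r = 0.61 without RS-2 and RS-6. Dhrs3 had r = 0.84 and rho = 0.83 with it in RT (exact permutation p = 0.0472 and 0.0583, adjusted p = 0.364 and 0.45), with r = 0.63 without RT-1 and RT-6. Adh7 had r = −0.81 and rho = −0.84 with the fibroblast level in RS (exact permutation p = 0.0472 and 0.0444, adjusted p = 0.364 and 0.45), with r = −0.44 without RS-3 and RS-6.

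Rbp4 had, with the adipocyte level in RT, r = 0.82 and rho = 0.83 (exact permutation p = 0.00972 and 0.0583, adjusted p = 0.263 and 0.45), and r was 0.80 without RT-1 and RT-6. In RS it had r = 0.82 and rho = 0.49 (exact permutation p = 0.075 and 0.356, adjusted p = 0.409 and 0.835), and r was −0.80 without RS-2 and RS-6, so that value rests on those mice. Both measures of a mouse in a relation come from the same array.

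**Figure D5:**
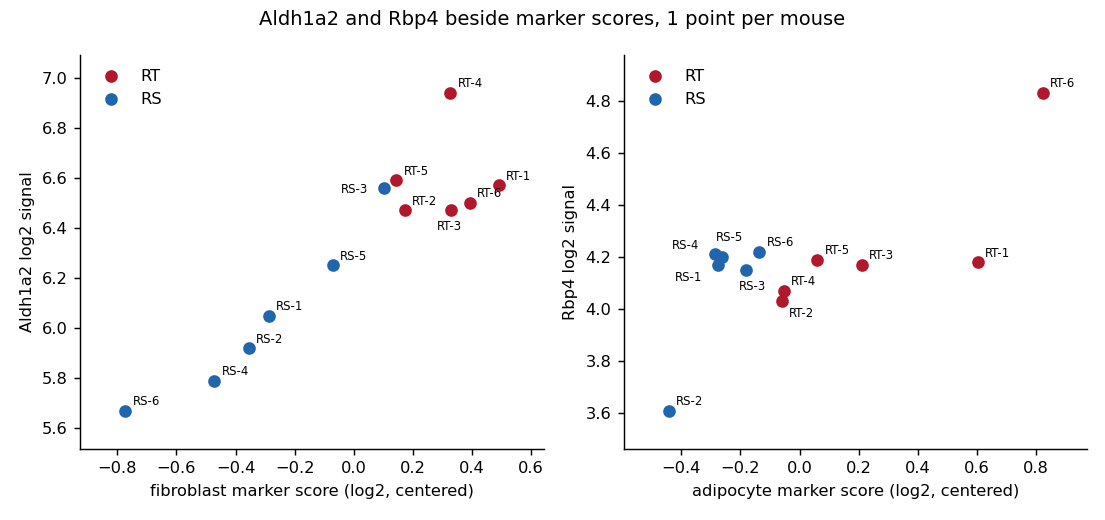
Log2 signal of Aldh1a2 against the fibroblast marker level (left) and of Rbp4 against the adipocyte marker level (right), where a level is the mean of the markers' log2 signals after centering each marker over the 12 mice, with 1 point per mouse. The RS points of Aldh1a2 rise together with the fibroblast level (r = 0.97) and the RT points do not (r = 0.07).

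The genes whose variation within the groups was most like that of each member were found by the Pearson correlation of deviations from the group means over the 12 arrays, among 19937 other genes. They were Tprgl, Rnps1 and Dusp23 for Adh1 (0.97, 0.96 and 0.96), Lynx1, Canx and Ptgr2 for Aldh1a2 (0.95, 0.92 and 0.90) and G370120E05Rik, Olfr1347 and Spdye4c for Stra6 (0.96, 0.95 and 0.95). For Rbp4 they were Acaca, which encodes acetyl-CoA carboxylase, Mphosph10 and Ppme1 (0.90, 0.89 and 0.89). For Rdh10 they were Gm614, Nagk and Olfr960 (0.93, 0.92 and 0.89), for Dhrs3 Fer, Atg10 and Mmrn2 (0.92, 0.90 and 0.88) and for Adh7 Gimap3, Kctd16 and Drc1 (0.92, 0.89 and 0.84). For Aldh1a1 they were Ngdn, 4932438A13Rik and Gm10785 (0.92, 0.89 and 0.89) and for Aldh1a3 Rusf1, Htr1b and Prok2 (0.92, 0.88 and 0.88). None of the 9 retinoid genes was among the 3 most like genes of another. These are the highest of many correlations over few arrays and are given as a description.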

How the data were processed

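RNA of the gastrocnemius muscle of 12 mice (250 ng each) was hybridized to Affymetrix Mouse Gene 1.0 ST arrays. The authors deposited log2 signals of 28944 transcript clusters, normalized by RMA per the labels. The study's methods name RMA in Expression Console 1.3.0.187 in one place and SST-RMA in Transcriptome Analysis Console 4.0 in another. RMA is meant to make array distributions alike and compresses differences of dim genes. The deposited arrays still differed in median (4.40 to 4.63) and SD (1.97 to 2.15). A genome build for the array is not given in the sources used here. The table held 0 columns of other samples. Precision is limited by the number of arrays.

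Groups and mouse numbers came from the sample labels. Transcript clusters were named through the platform annotation (21789 with 1 symbol, 1621 with several and 5534 with none), and only those with 1 symbol were named. RT was set against RS in limma 3.58.1 (lmFit, then eBayes; R version 4.3.3), two-sided, without covariates, over the whole table, and p-values were adjusted by the Benjamini-Hochberg method. The steps were tested on simulated data. The 9 genes and all gene lists were chosen with earlier results of these data known. Named genes were the 9, every called gene of the pathway and family lists, all receptors and breakdown enzymes, and for each of the 9 the 3 most like genes. Others were picked as examples after their values were seen. Of several transcript clusters of a gene the brightest was taken. Alternatives were a further quantile normalization, cyclic loess, median centering, leaving out dim transcript clusters, the unmoderated test of the methods, moderation with trend and robust settings, array weights, the SD of each array as a covariate, removal of RS-4 and RS-6, the replicate number as a block, an adjusted p under 0.05, the mean over a gene's transcript clusters, and leaving out each mouse. Upstream windows were the first 250 bases of RefSeq promoter entries, searched on both strands.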

Additional observations from a re-analysis of the deposited data

Results flagged for a closer look

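In each of the 9 genes the highest and lowest mouse of each group was compared with its neighbor by Dixon's ratio, the gap to the nearest mouse over the range of the group. Of 18 groups tested, 3 had a mouse beyond the 95% critical value, and chance alone gives about 1 in 20 groups. Aldh1a2 was 6.94 in RT-4, with the next RT mouse at 6.59 (ratio 0.745). Rbp4 was 4.83 in RT-6, with the next RT mouse at 4.19 (ratio 0.80). Rbp4 was also 3.61 in RS-2, with the next RS mouse at 4.15 (ratio 0.885). Their causes were not tested.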

How the results depend on the processing

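Of the 9 genes, 2 were called higher and 1 lower in RT. Higher calls were 5 with median centering and 1 with the array SD as a covariate (2 to 3 when each mouse was left out). Lower calls were 0 after quantile normalization, cyclic loess, median centering, the methods' unmoderated test, the SD covariate, removal of RS-4 and RS-6, or an adjusted p under 0.05. Leaving out each mouse gave 0 to 1, with 0 without RT-1, RT-4, RT-6, RS-2, RS-4, RS-5 or RS-6. Adh7 turned above 0 after quantile normalization (0.068), loess (0.063) and median centering (0.028) and without RS-4 and RS-6 (0.00083), lay between −0.095 and 0.0043 with a mouse left out (above 0 without RS-6), and was not tested with dim transcript clusters left out. Pathway genes called higher (6) were 14 with median centering, 3 with the unmoderated test, 0 with the SD covariate, 3 without RS-4 and RS-6, and 2 at an adjusted p under 0.05. They were 2 to 11 when each mouse was left out: 11 without RS-1, 2 without RT-1 or RT-2, and 3 without RT-4, RS-4 or RS-6. Those called lower (2) were 1 with median centering, array weights or an adjusted p under 0.05, 0 with the SD covariate, and 1 to 4 with a mouse left out: 4 without RS-1, and 1 without RT-5, RT-6, RS-3 or RS-4. The other dehydrogenases called higher (4) were 0 with the SD covariate and 1 without RS-4 and RS-6 (4 to 5 with a mouse left out). On the whole array, 5883 were higher and 2414 lower with median centering, 732 and 888 with the SD covariate, 1649 and 1791 without RS-4 and RS-6, 2092 and 2307 at an adjusted p under 0.05, and 2360 to 4573 and 2564 to 4806 with a mouse left out. The median difference of all transcript clusters was 0.06 with median centering, beside −0.01 without it. The causes were not tested. Mice of the same number showed little shared deviation (correlations of −0.24 to 0.107, with 1 of 6 RT mice most like its own number). The main comparison did not pair them by number, and whether they shared a processing step was not tested. With the replicate block, 2 members were higher and 1 lower, pathway calls were 3 higher and 1 lower, dehydrogenases 4 and 0, and the array 2873 and 3174. Dim genes such as Adh7 have little signal over background, which limits what can be seen of them.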
